A study of Mus musculus with 12 samples.

Results

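Chemokines and their receptors were read in side population cells of 2 mouse muscle sources. The set holds every probe set of the array whose single gene symbol is that of a chemokine ligand (Ccl, Cxcl, Xcl1, Cx3cl1) or of a chemokine receptor (Ccr, Cxcr, Cx3cr1, Xcr1, Ccrl2 and the atypical Ackr receptors). It came to 86 of 45101 probe sets, 51 for 33 ligand genes and 35 for 21 receptor genes, by a rule on gene symbols, though the family was picked with earlier results of these data known. Cells of the side population keep little of the dye Hoechst because they export it, and few cells of a tissue do so. The sources were extraocular muscle, which turns the eyeball (EOM, 6 preparations), and a muscle of the lower leg, tibialis anterior (TA, 6 preparations), each isolated separately and hybridized to its own array. Arrays are named by source and the number in their title (0, 1, 2, 3, 5 and 6). The labels used here do not state the strain, sex, age or treatment of the mice. A side population is defined by dye export and not by lineage, so a preparation can hold several cell types. In such bulk RNA fewer cells of a type and less RNA per cell cannot be told apart.

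Chemokines are small secreted proteins that bind G protein-coupled receptors and guide cells, above all leukocytes, along their gradients. They are named by the spacing of their first cysteines (CC, CXC, CX3C and XC), and several ligands can share a receptor. Atypical receptors bind ligands without the usual G protein signal and clear or store them. In muscle, fibroblasts, vessel cells and resident macrophages are known sources of ligands, and Cxcl12 with its receptor Cxcr4 is known from stem cell homing and vessel growth.

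The deposited values are array signals on a linear scale, which have no count or depth behind them, and the number of arrays limits the precision. Signals of different probe sets are not comparable, so each is set against itself in the other source. Sums over marker lists, given further on, are carried by their brightest probe sets. Median signals ranged from 31.1 to 43.4 on 9 arrays and were higher on EOM 1 (87.2), TA 3 (69.5) and TA 5 (63.1). Those arrays also had 3' to 5' ratios of the beta-actin control, a sign of shortened RNA, of 104, 165 and 100, against 5.27 to 68.6 on the others. Where the call of a named member turned on these arrays, its value is given with and without them. Abcg2, the dye transporter, averaged 649.7 ± 322 in EOM against 2668 ± 728 in TA (SD, n = 6). The satellite cell factor Pax7 was too dim to be tested in either source.

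Most chemokine probe sets that passed with 12 equally weighted arrays were lower in EOM. Of the 86, 51 (33 of ligands and 18 of receptors) passed a filter that dropped the dimmest 40% of the array by mean log2 signal over all 12 arrays, and these were tested with limma across the whole table. With 12 arrays 8 fell and 1 rose in EOM at an adjusted p under 0.05 (Benjamini-Hochberg over 27022 probe sets), 15.7% and 1.96% of the 51. Of all tested probe sets 5.03% fell and 3.20% rose (8.23% in either direction). Ligands gave 1 higher and 6 lower, and receptors 0 higher and 2 lower. At an unadjusted p under 0.05 limma gave 1 receptor probe sets higher and 6 lower. The share of all tested probe sets at that level was not counted, so this split has no background. The 6 include the Ackr4 probe sets 1437668_at and 1437669_x_at (-1.39 and -1.40), which were at -0.31 and -0.35 without EOM 1, TA 3 and TA 5. The EOM and TA arrays did not overlap in 4 of the 51 (7.84%), against 5.43% of all tested probe sets. The median log2 fold change, EOM minus TA, was 0.14 over the ligand probe sets, -0.49 over the receptor probe sets and -0.03 over all tested. Every log2 value here is of signal + 16 and understates the change of dim probe sets.

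EOM 1 held these counts down. Without it 9 member probe sets were higher and 14 lower (17.6% and 27.5% of the 51), where 7.88% and 8.26% of all tested probe sets were (16.1% in either direction). The 23 included all 9 called with 12 arrays. Ligands then gave 8 higher and 9 lower, and receptors 1 higher and 5 lower. Median log2 fold changes without EOM 1 were 0.01 over the ligand probe sets, -0.65 over the receptor probe sets and -0.09 over all tested. Without EOM 1, TA 3 and TA 5 together (an alternative added with the data in view) the ligand counts were 9 higher and 8 lower and those of receptors again 1 and 5, with 8.35% of all probe sets higher and 8.95% lower (17.3% in either direction).

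**Figure D1:**
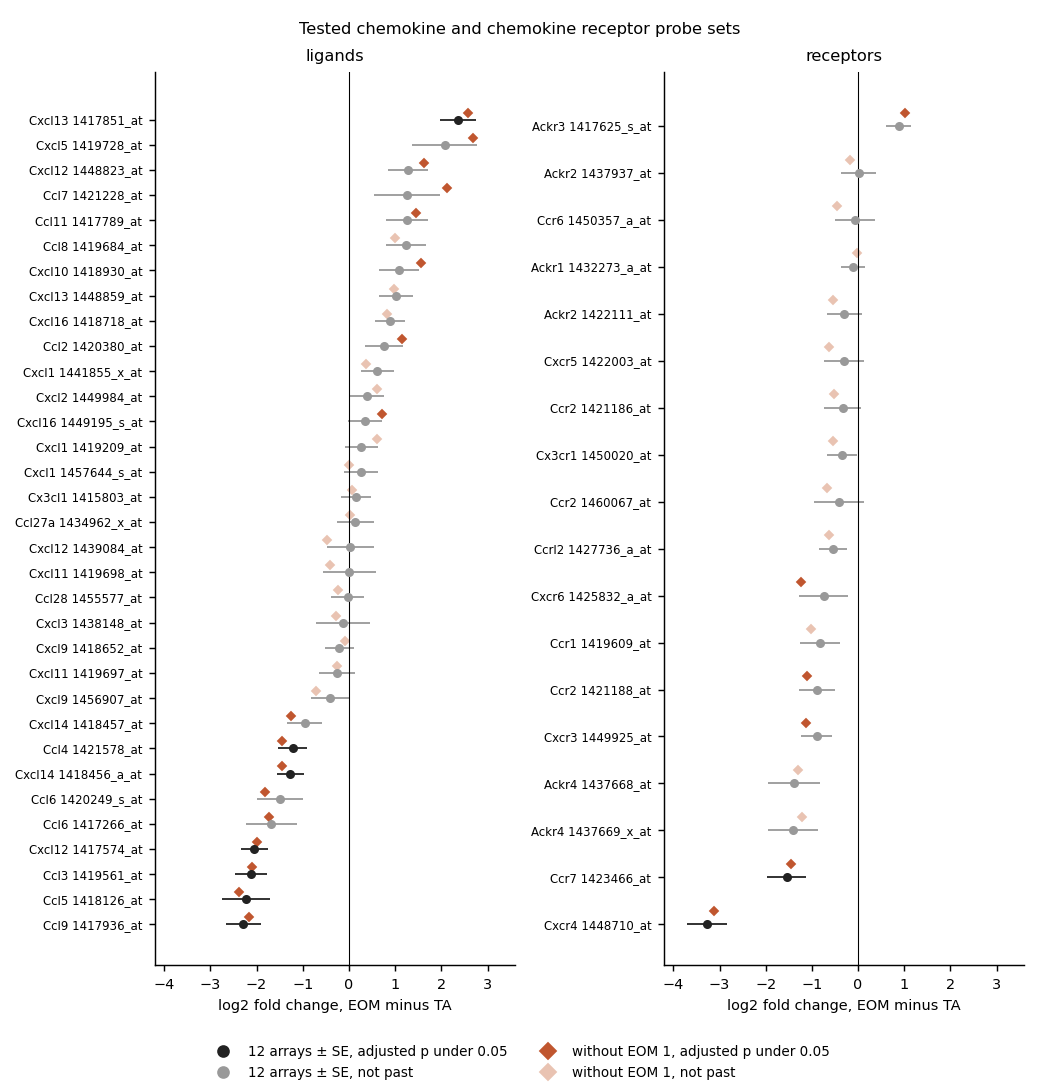
Log2 fold change (EOM minus TA) of the 33 ligand and 18 receptor probe sets tested. Circles with bars are the 12-array estimates ± SE and diamonds the estimates without EOM 1, in full colour where the adjusted p was under 0.05. Among the ligands 8 diamonds on the right and 9 on the left are in full colour, against 1 and 6 circles.

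The CC ligands that draw monocytes and T cells split by gene cluster. Ccl5, Ccl9, Ccl6, Ccl3 and Ccl4 are neighbours on chromosome 11, with no other protein-coding gene between them in the RefSeq annotation (assembly GRCm38.p6), and 4 of these 5 fell in EOM. Ccl2, Ccl7, Ccl11, Ccl12, Ccl8 and Ccl1 form another run of neighbours on that chromosome, 25 protein-coding genes away. The 4 of these that could be tested all had higher means in EOM and did not pass in the fit with 12 equally weighted arrays. Each passed when a certain array was left out, and all 4 passed with array weights (adjusted p between 9.38e-05 and 0.0109). Every tested probe set of the first run had a negative estimate and every tested probe set of the second a positive one.

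Ccl3, a ligand of the receptor Ccr1 made by activated macrophages and lymphocytes, had signals of 3.9 at the lowest, 9.35 at the median and 27.9 at the highest in EOM. In TA they were 50.1, 109 and 217. All 6 EOM arrays lay below all 6 TA arrays, and the difference was -2.12 ± 0.35 (log2 fold change ± SE, adjusted p = 0.00059). EOM signals this low are near the bottom of the array's range, and detection calls were not used here.

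Ccl9, another Ccr1 ligand, found in mice and made by myeloid cells, ran from 7.9 over a median of 29.4 to 109.8 in EOM and from 104 over 245 to 303 in TA. EOM 5 was the high array of its group and just passed the lowest TA array, TA 1. The difference was -2.29 ± 0.38 (adjusted p = 0.000645). Its dimmer probe set was not tested.

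Ccl5, which attracts T cells and monocytes and is itself abundant in T and NK cells, ran from 81.5 over 264 to 762 in EOM and from 543 over 1011 to 3588 in TA. The groups overlapped through EOM 5 (762), above TA 6 (543) and TA 1 (709.7), and the highest signals were on TA 5 (3588) and TA 3 (2736). The difference was -2.22 ± 0.52 (adjusted p = 0.0101), and -1.74 (adjusted p = 0.0094) without EOM 1, TA 3 and TA 5.

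Ccl4, made by the same cells as Ccl3, ran from 36.5 over 58.4 to 163 in EOM and from 114 over 168 to 277 in TA. EOM 1 was its high EOM array, and without it the EOM arrays, at 85.5 at most, lay below all TA arrays. Its log2 fold change of -1.22 ± 0.32 (adjusted p = 0.0207) became -1.44 (adjusted p = 0.000904) without EOM 1. The call was lost when EOM 0, EOM 2, EOM 3, EOM 6 or TA 5 was left out (adjusted p up to 0.0594).

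Ccl6, a myeloid ligand found in mice, was at -1.50 ± 0.50 (probe set 1420249_s_at, adjusted p = 0.0738) and -1.68 ± 0.56 (1417266_at, adjusted p = 0.0774) and did not pass. In TA its signals spread widely, on 1417266_at from 6.0 on TA 1 to 445 on TA 6. Leaving out EOM 1 or TA 1 brought both probe sets past the threshold. Without EOM 1 they were at -1.81 (adjusted p = 0.0081) and -1.74 (adjusted p = 0.0424), and without EOM 1, TA 3 and TA 5 at -1.99 (adjusted p = 0.00694) and -1.58 (adjusted p = 0.0982).

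The promoters of Ccl3 and Ccl9 are shown because these ligands had the lowest adjusted p of the run. The letters are the 250 bases before the gene start in RefSeq (build GRCm38.p6), 5' to 3' on the gene's strand, for Ccl3 at chr11:83649379-83649628, minus strand, and for Ccl9 at chr11:83578637-83578886, minus strand. Capitals mark matches, on either strand, to a simplified NF-kB site (GGG, any 3 bases, TTCC), an interferon-stimulated response element (GAAA, any 2 bases, GAAA) or a TATA box (TATAAA).
Ccl3: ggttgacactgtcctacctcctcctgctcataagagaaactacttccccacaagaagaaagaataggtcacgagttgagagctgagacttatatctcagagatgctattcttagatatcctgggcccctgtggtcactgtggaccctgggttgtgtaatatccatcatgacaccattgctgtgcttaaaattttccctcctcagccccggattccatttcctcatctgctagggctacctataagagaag
Ccl9: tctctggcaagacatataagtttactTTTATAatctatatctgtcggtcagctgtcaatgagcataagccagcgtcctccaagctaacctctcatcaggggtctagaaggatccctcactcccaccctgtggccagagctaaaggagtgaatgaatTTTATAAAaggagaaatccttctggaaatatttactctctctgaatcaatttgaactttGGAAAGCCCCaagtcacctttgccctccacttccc
The Ccl3 window held none of the 3 motifs. That of Ccl9 held 1 NF-kB match and 3 TATAAA matches, of which 2 overlapped. Of 27025 genes with a window 4.6% held the NF-kB letters, 3.04% the interferon element and 13.0% TATAAA. Among the 41 of 54 member genes with a window the numbers were 8, 2 and 12. A match is a description of the letters only.

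Ccl7, a monocyte attractant that acts through Ccr2, showed how far a single array could decide a call in the other run. Its EOM signals were 11.8 on EOM 1 and 540.3 to 1632 on the other 5, and in TA they ran from 119 over 218 to 377. With all arrays it was at 1.26 ± 0.72 (adjusted p = 0.367). Without EOM 1 the groups did not overlap and it was at 2.12 ± 0.31 (adjusted p = 6.85e-05).

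Ccl2, the main Ccr2 ligand and a product of stromal and vessel cells under inflammation, ran from 192 over 1068 to 1672 in EOM and from 266 over 544 to 698 in TA. Again EOM 1 was the lowest EOM array, and the others, from 716 up, lay above all TA arrays. Ccl2 gave 0.75 ± 0.41 (adjusted p = 0.336) with 12 arrays and 1.15 ± 0.26 (adjusted p = 0.00425) without EOM 1.

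Ccl11, eotaxin, which draws eosinophils through Ccr3, ran from 549 over 1317 to 2289 in EOM and from 182 over 456 to 1700.1 in TA. TA 6 (1700.1) stood with the EOM arrays, the next TA array being at 684. It gave 1.25 ± 0.45 (adjusted p = 0.112), or 1.46 (adjusted p = 0.0227) without EOM 1, and it also passed without TA 6, where the lowest adjusted p of the 12 such fits was 0.0198. Without EOM 1, TA 3 and TA 5 it was at 0.97 (adjusted p = 0.0894).

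Ccl8, a relative of Ccl2, ran from 261 over 406 to 1013 in EOM and from 64.1 over 150.2 to 477 in TA. Here EOM 1 was the highest array. Its log2 fold change was 1.24 ± 0.43 (adjusted p = 0.0889), 1.00 (adjusted p = 0.0903) without EOM 1, and it passed only without TA 3 (adjusted p = 0.0263) among the fits with 1 array left out. Without EOM 1, TA 3 and TA 5 it was again at 1.24 (adjusted p = 0.0221). Ccl12 and Ccl1 of the same run were too dim to be tested.

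**Figure D2:**
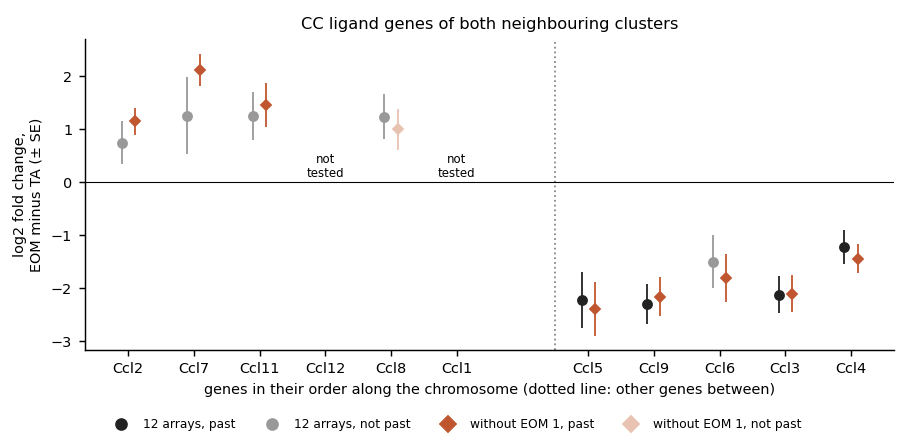
Log2 fold change (EOM minus TA, ± SE) of the CC ligand genes of both runs, in their order along the chromosome. Circles are the 12-array estimates and diamonds those without EOM 1, in full colour where the adjusted p was under 0.05. Every tested gene left of the dotted line lies above 0 and every gene right of it below 0.

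The CXC ligands held the only increase called with 12 arrays. Cxcl13, which guides B cells through Cxcr5 and is made by stromal cells of lymphoid tissue, ran from 260 over 677 to 996 in EOM and from 44.7 over 107 to 245 in TA on probe set 1417851_at. The groups did not overlap, with EOM 1 lowest in EOM and TA 2 highest in TA. The difference was 2.36 ± 0.39 (adjusted p = 0.00059). A second, dimmer probe set, 1448859_at, was at 1.01 ± 0.37 (adjusted p = 0.112), with TA 3 (141) and TA 5 (129.9) inside the EOM range of 96.5 to 194 and the other TA arrays below it. It passed without TA 3, and was at 1.48 (adjusted p = 0.00111) without EOM 1, TA 3 and TA 5.

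Cxcl14, a ligand of fibroblasts and epithelia, fell in EOM. On 1418456_a_at it ran from 397 over 494 to 955 in EOM and from 703 over 1539 to 1799.7 in TA. Of the EOM arrays EOM 1 alone reached the TA range, and the other 5 lay between 397 and 504. The difference was -1.27 ± 0.29 (adjusted p = 0.00964). The second probe set, 1418457_at, gave -0.96 ± 0.38 (adjusted p = 0.149) with all arrays, or -1.26 (adjusted p = 0.00661) when EOM 1 was dropped.

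Cxcl10, an interferon-induced ligand of Cxcr3, ran from 593 over 4308 to 5212 in EOM and from 1051 over 1618 to 1922 in TA. EOM 1 (593) was below every TA array, and the other 5 EOM arrays, from 3279.5 up, were above every TA array. With 12 arrays Cxcl10 gave 1.08 ± 0.43 (adjusted p = 0.157), and without EOM 1 it gave 1.55 (adjusted p = 6.07e-05). The other interferon-induced Cxcr3 ligands did not pass. Cxcl9 was at -0.21 ± 0.32 on 1418652_at (adjusted p = 0.823) and Cxcl11 at 0.01 ± 0.57 on 1419698_at (adjusted p = 0.994). Without EOM 1 they were at -0.08 and -0.41 and did not pass.

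The promoters of Cxcl10 and Cxcl13 are shown as those of the ligands with the lowest adjusted p among the higher ones without EOM 1, Cxcl10 at chr5:92348890-92349139, minus strand, and Cxcl13 at chr5:95956689-95956938, plus strand, with build, direction and capitals as above.
Cxcl10: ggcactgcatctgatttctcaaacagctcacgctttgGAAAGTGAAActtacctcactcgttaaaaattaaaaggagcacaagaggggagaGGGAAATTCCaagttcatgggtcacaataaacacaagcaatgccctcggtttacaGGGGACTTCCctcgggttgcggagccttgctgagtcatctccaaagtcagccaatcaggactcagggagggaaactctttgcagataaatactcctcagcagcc
Cxcl13: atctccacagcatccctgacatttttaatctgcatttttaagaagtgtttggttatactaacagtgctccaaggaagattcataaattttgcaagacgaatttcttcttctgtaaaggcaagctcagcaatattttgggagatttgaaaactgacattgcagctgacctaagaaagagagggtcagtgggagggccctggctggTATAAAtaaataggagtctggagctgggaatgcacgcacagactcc
Cxcl10 held 2 NF-kB matches and 1 interferon element, and Cxcl13 a single TATAAA, from 46 to 41 bases before the start.

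None of the ligands of the neutrophil receptor Cxcr2 passed with 12 arrays. Cxcl1 was at 0.26 ± 0.37 on 1457644_s_at (adjusted p = 0.80), Cxcl2 at 0.38 ± 0.38 (adjusted p = 0.676) and Cxcl3 at -0.13 ± 0.59 (adjusted p = 0.952). On 1419209_at Cxcl1 was at 0.27 ± 0.36 (adjusted p = 0.782), at 0.60 (adjusted p = 0.0852) without EOM 1, and passed at 0.60 (adjusted p = 0.0375) without EOM 1, TA 3 and TA 5. Cxcl5, a further member of this group, had a larger estimate. It ran from 40.6 over 710.4 to 1316 in EOM and from 32.5 over 64.1 to 601 in TA, with EOM 1 low and TA 2 high. Its log2 fold change was 2.07 ± 0.71 (adjusted p = 0.0866), and 2.69 (adjusted p = 0.00158) without EOM 1. It passed without TA 2 as well. On chromosome 5 these genes lie in 1 run, Cxcl5 at the end before Cxcl3, Cxcl15, Cxcl1 and Cxcl2.

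Probe sets of the same gene disagreed on EOM 1. For Cxcl1 this array had the lowest EOM signal on 1419209_at (3295, the others 12095 to 14011) and the highest on 1457644_s_at (71966, the others 21560.3 to 27248). For Cxcl16, a membrane-bound ligand of Cxcr6, it was highest on 1418718_at (296) and lowest on 1449195_s_at (25.9). On the former Cxcl16 was at 0.89 ± 0.32 (adjusted p = 0.103), and on the latter at 0.35 ± 0.37 (adjusted p = 0.708), or 0.71 (adjusted p = 0.0482) without EOM 1 and 0.64 (adjusted p = 0.0683) without EOM 1, TA 3 and TA 5. What sets these probe sets apart on EOM 1 was not tested.

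Cx3cl1, the membrane-bound fractalkine of endothelial and nerve cells, was at 0.15 ± 0.33 (adjusted p = 0.885). In EOM it ran from 39.7 on EOM 6 over 199 to 211, and in TA from 109 over 131 to 163. Ccl27a (0.14) and Ccl28 (-0.03) did not pass either.

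Cxcl12, the homeostatic ligand that holds stem cells and leukocytes in their niches, gave opposite directions on 2 of its probe sets. On 1417574_at it ran from 372 over 478 to 579 in EOM and from 981 over 2066 to 3998 in TA. No EOM array reached a TA array, and it fell by 2.05 on the log2 scale (SE 0.29, adjusted p = 0.000119). On 1448823_at it ran from 1559.6 over 7413 to 8167 in EOM and from 1063 over 2051 to 6172 in TA. EOM 1 alone lay with the TA arrays, and TA 6 alone with the EOM arrays. That estimate was 1.27 ± 0.43 (adjusted p = 0.0831), and 1.63 (adjusted p = 0.00136) without EOM 1. It passed without TA 6 too.

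The remaining Cxcl12 probe set, 1439084_at, was dim and at 0.03 ± 0.51 (adjusted p = 0.986), with EOM 1 at 375 and the other EOM arrays at 50.6 at most. The call on 1417574_at was kept in all 12 fits with 1 array left out (log2 fold change between -2.25 and -1.85). The gene is known to be spliced into several transcripts with different 3' ends. Which transcripts each probe set reads was not looked up here, so no direction is given for Cxcl12 as a gene.

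Cxcr4, the signalling receptor of Cxcl12 on leukocytes, endothelial tip cells and progenitors, showed the largest difference of all tested members. It ran from 4.6 over 38.3 to 80.5 in EOM and from 209 over 416 to 983 in TA. The groups did not overlap, and TA 5 (983) and TA 3 (933) were the highest. It fell by 3.27 on the log2 scale in EOM (SE 0.44, adjusted p = 8.73e-05). Dropping EOM 1, TA 3 and TA 5 gave -2.57 (adjusted p = 9.85e-05).

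Ackr3, the atypical receptor that takes up Cxcl12 and Cxcl11, had its higher values in EOM. It ran from 4113 over 7542 to 9369.8 in EOM and from 2888 over 3233 to 6262 in TA. EOM 1 was the lowest EOM array and TA 2 the highest TA array, and the difference passed when either was left out. With 12 arrays Ackr3 gave 0.88 ± 0.27 (adjusted p = 0.0567), which became 1.02 (adjusted p = 0.00425) when EOM 1 was dropped.

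**Figure D3:**
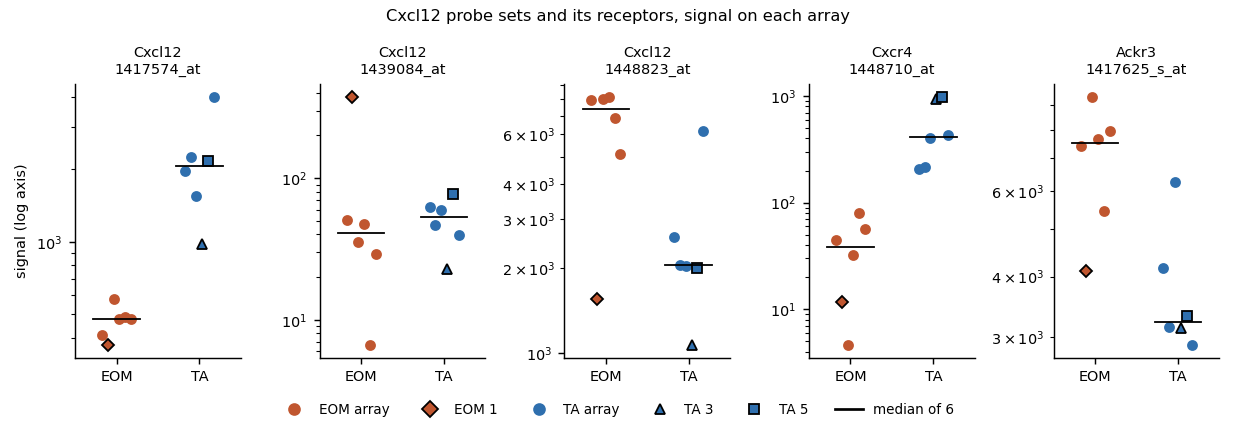
Signal on each array (log axes that do not start at 0) of the Cxcl12 probe sets and of the receptors Cxcr4 and Ackr3. Points are arrays, with EOM 1, TA 3 and TA 5 outlined, and bars the median of 6. EOM lies below TA without overlap for Cxcl12 1417574_at (at most 579 against at least 981) and Cxcr4 (80.5 against 209), while on Cxcl12 1448823_at and Ackr3 most EOM arrays lie higher.

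The promoters of Cxcl12 and Cxcr4 are shown as those of a ligand and its receptor, Cxcl12 at chr6:117168285-117168534, plus strand, and Cxcr4 at chr1:128592300-128592549, minus strand, written as before.
Cxcl12: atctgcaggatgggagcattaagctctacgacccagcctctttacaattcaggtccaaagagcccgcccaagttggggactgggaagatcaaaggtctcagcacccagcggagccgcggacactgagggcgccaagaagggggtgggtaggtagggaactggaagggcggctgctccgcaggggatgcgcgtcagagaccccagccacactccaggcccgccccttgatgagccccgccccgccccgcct
Cxcr4: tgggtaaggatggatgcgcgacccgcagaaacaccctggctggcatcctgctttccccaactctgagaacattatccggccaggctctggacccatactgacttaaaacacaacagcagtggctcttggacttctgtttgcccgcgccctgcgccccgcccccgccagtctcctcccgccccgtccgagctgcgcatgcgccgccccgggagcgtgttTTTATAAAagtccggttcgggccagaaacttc
No motif was found in the Cxcl12 window. Cxcr4 held TATAAA on both strands, overlapping, from 32 to 25 bases before the start.

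Among the other receptors Ccr7 fell in EOM and the rest did not pass with 12 arrays. Ccr7, which brings dendritic cells and naive T cells to lymph nodes, ran from 1.4 over 18.4 to 34.6 in EOM and from 19.4 over 68.9 to 159 in TA, with TA 3 low among the TA arrays. It was at -1.55 ± 0.43 (adjusted p = 0.0327). This call was weak: it failed in 7 of 12 leave-one-out fits (without EOM 0, EOM 2, TA 0, TA 1, TA 2, TA 5 or TA 6, adjusted p up to 0.0867). So did quantile normalization (adjusted p = 0.0698), median centring (adjusted p = 0.115) and testing all probe sets (adjusted p = 0.0528).

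Cxcr3 and Cxcr6, found on activated T and NK cells, did not pass with 12 arrays. Cxcr3, the receptor of Cxcl9, Cxcl10 and Cxcl11, was at -0.90 ± 0.34 (adjusted p = 0.137), its EOM signals running from 17.2 over 41.6 to 123 and those of TA from 57.3 over 112 to 142. EOM 1 held the value of 123, and without it no EOM array reached a TA array (-1.13, adjusted p = 0.0138). Cxcr6 was at -0.74 ± 0.53 (adjusted p = 0.51), with EOM 1 at 176 and the other EOM arrays at 17.7 at most. Without EOM 1 it was at -1.23 (adjusted p = 0.0375), and without EOM 1, TA 3 and TA 5 at -0.79 (adjusted p = 0.125). EOM 1 was the highest EOM array for 12 of the 18 receptor probe sets and the lowest for 3. The same was not counted over all tested probe sets, and EOM 1 had the highest median signal of all arrays (87.2).

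Receptors of monocytes and macrophages were dim. Ccr2, the receptor of Ccl2 and Ccl7, had 3 tested probe sets at -0.89, -0.42 and -0.33, none past the threshold with 12 arrays. The first, 1421188_at, passed without EOM 1 (-1.11, adjusted p = 0.0441). Ccr1, the receptor of Ccl3, Ccl5, Ccl6 and Ccl9, gave -0.82 ± 0.43 (adjusted p = 0.313), or -1.30 (adjusted p = 0.025) without EOM 1, TA 3 and TA 5. Cx3cr1, the fractalkine receptor of patrolling monocytes, was at -0.35 ± 0.33 (adjusted p = 0.657) and Cxcr5, the B cell receptor of Cxcl13, at -0.31 ± 0.43 (adjusted p = 0.796).

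Atypical receptors other than Ackr3 did not pass. Ackr1, which displays inflammatory chemokines on venules, had signals of 276 to 552 in EOM and 319 to 598 in TA (-0.12 ± 0.26, adjusted p = 0.885). Ackr2, a scavenger of inflammatory CC ligands, was at 0.01 ± 0.38 (1437937_at, adjusted p = 0.995), a value that takes either sign as arrays are left out. Ackr4, which binds the ligands of Ccr7 and Ccr9, was at -1.39 ± 0.57 (1437668_at, adjusted p = 0.172). TA 3 (555) and TA 5 (344) carried that estimate, since the other TA arrays were at 48.3 at most and EOM at 59.4 at most. Without EOM 1, TA 3 and TA 5 it was at -0.31 (adjusted p = 0.616). Ccrl2, which binds chemerin, was at -0.55 ± 0.30 (adjusted p = 0.332), and Ccr6 at -0.07.

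**Figure D4:**
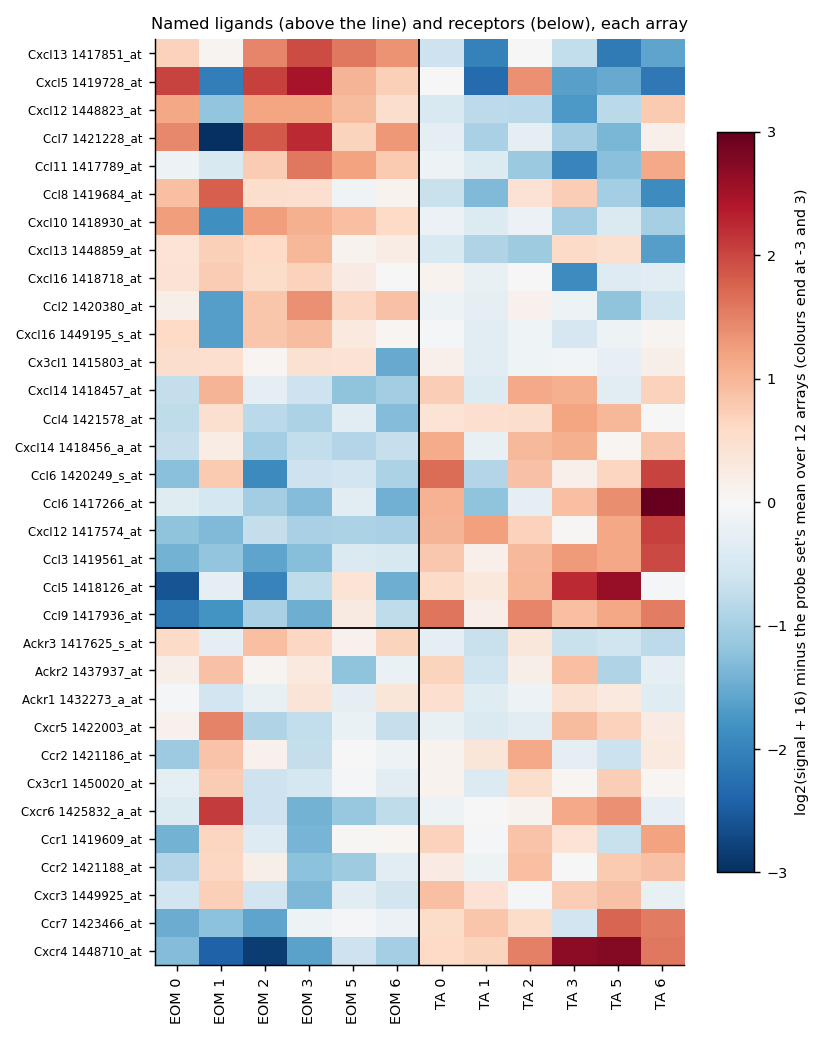
Log2(signal + 16) of the 33 named probe sets on each array, minus the probe set's mean over 12 arrays, with ligands above the line, receptors below it and EOM left of the upright line. EOM 1 departs from the other EOM arrays in both directions, low for Ccl7 (11.8) and Cxcl10 (593) and high for Cxcr6 (176).

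Ligands set beside their receptors showed no common direction. For Cxcl12 a probe set at -2.05 and another at 1.27 stood beside Cxcr4 at -3.27 and Ackr3 at 0.88. Ccl3, Ccl5 and Ccl9 (-2.12, -2.22 and -2.29) stood beside Ccr1 at -0.82. For Cxcl13, at 2.36, the receptor Cxcr5 was at -0.31. Without EOM 1, Ccl2 (1.15) and Ccl7 (2.12) stood beside Ccr2 at -1.11 on 1421188_at, which passed, and at -0.53 on 1421186_at (adjusted p = 0.378) and -0.67 on 1460067_at (adjusted p = 0.433), which did not. Also without EOM 1, Cxcl10 (1.55) passed higher and its receptor Cxcr3 (-1.13) lower in EOM.

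**Figure D5:**
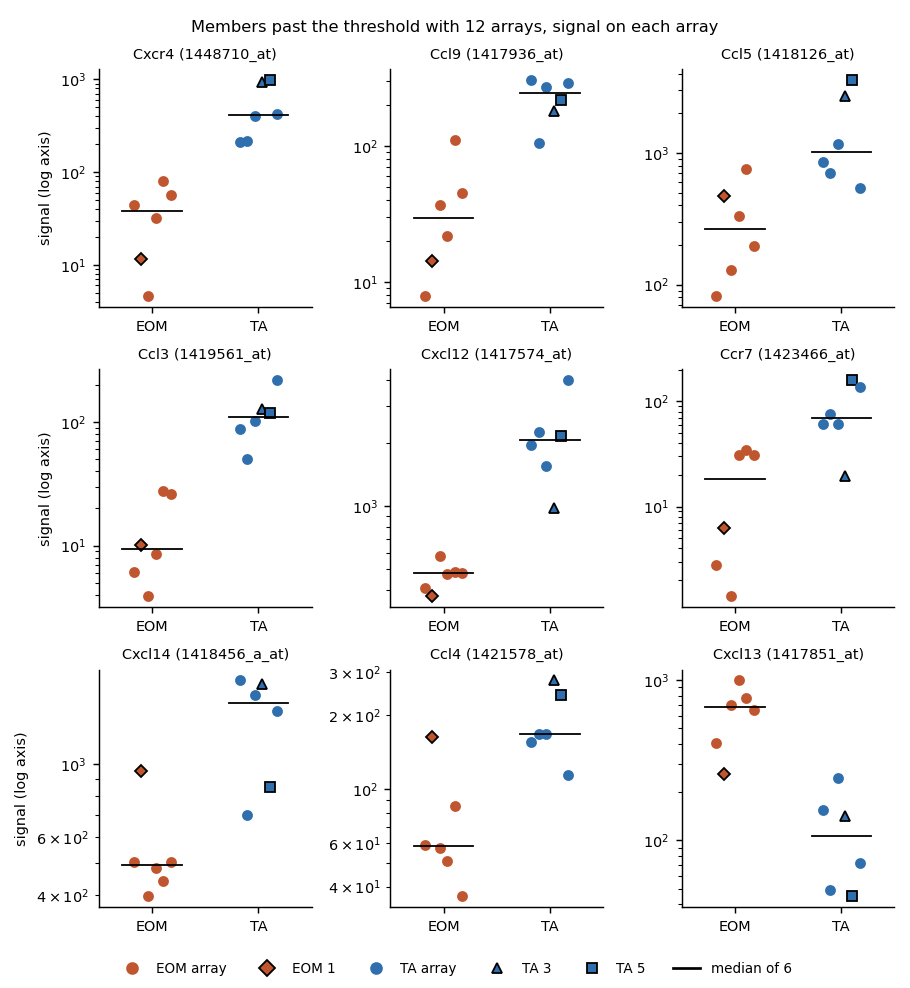
Signal on each array (log axes that do not start at 0) of the 9 member probe sets called with 12 arrays. Points are arrays, with EOM 1, TA 3 and TA 5 outlined, and bars the median of 6. The groups do not overlap for Cxcr4, Ccl3, Cxcl12 and Cxcl13, and EOM 1 (955) is the EOM array that reaches the TA range of Cxcl14.

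Genes downstream of the receptors were lower or did not pass. Of 42 genes of receptor signalling and trafficking tested, 9 fell in EOM, with a median of -0.38. Across all 13067 tested genes 6.81% fell and 4.05% rose, with a median of -0.04. The largest decreases were in Rgs5 (-3.96 ± 0.31, adjusted p = 4.32e-07) and Rgs4 (-3.09 ± 0.36, adjusted p = 1.85e-05), which shorten G protein signals and are abundant in vessel wall cells. Pik3r6, a subunit of the G protein-driven PI3 kinase, was at -2.04 (adjusted p = 0.000896), and the G protein subunit Gng11 at -1.97 (adjusted p = 4.4e-05). Dock2, needed for leukocyte migration, fell from 101 to 21.1 in mean signal (-1.72, adjusted p = 0.00385).

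Genes that induce chemokines went both ways. Of 33 tested cytokine, receptor and NF-kB genes 2 rose and 4 fell (median 0.12). The cytokines Tnf (-1.78 ± 0.44, adjusted p = 0.0165) and Il1b (-1.68 ± 0.46, adjusted p = 0.0293) and the endotoxin co-receptor Cd14 (-2.34 ± 0.63, adjusted p = 0.0265) fell. The receptor Il17ra rose (1.20 ± 0.32, adjusted p = 0.0236). Without EOM 1 this list gave 6 higher and 5 lower, with the cytokine Il6 at 1.27 (adjusted p = 0.0302, against 0.40 and 0.864 with 12 arrays) and the receptor Tlr2 at 1.59 (adjusted p = 0.000479, against 0.95 and 0.395). Among 21 interferon response genes 2 rose (median 0.16), Usp18 (1.41 ± 0.31, adjusted p = 0.00711) and Gbp2 (1.19 ± 0.29, adjusted p = 0.0121). Without EOM 1 there were 4 higher, with a median of 0.42. Of 23 genes that present or cut chemokines 2 rose, the glypicans Gpc3 (1.76 ± 0.31, adjusted p = 0.00106) and Gpc6 (1.58 ± 0.38, adjusted p = 0.0128), and 2 fell, Sdc3 and Adam10 (both -1.14). Without EOM 1 there were 8 higher and 2 lower, where 10.0% of all tested genes were higher and 10.5% lower.

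Chemokine family genes with other names added 1 higher and 1 lower of 6 tested (median -0.67). Rarres2, which encodes chemerin, rose (1.19 ± 0.36, adjusted p = 0.0482), and Cd74, known as the receptor of Mif, fell (-1.82 ± 0.38, adjusted p = 0.00426). Pf4, the platelet chemokine, was at -1.29 ± 0.40 (adjusted p = 0.0549) and passed without EOM 1 (-1.58, adjusted p = 0.00274). Mif was at -0.82 ± 0.29 (adjusted p = 0.103) and passed without EOM 1 too (-1.01, adjusted p = 0.00772), where the list gave 1 higher and 3 lower.

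The leukocyte markers that passed moved the same way as the ligands and receptors that fell. Of 8 pan-leukocyte markers 7 fell (median -2.24), among them Ptprc, Cd53, Lcp1 and Laptm5. Their summed signal was 430.4 to 4437 in EOM, with EOM 0 lowest and EOM 1 highest, and 4794 to 10295 in TA, with no overlap. Of 14 macrophage and monocyte markers 6 fell, with sums of 410.3 to 4436 in EOM and 1769 to 16364 in TA, while C1qa, C1qc, Cd163, Itgam and Aif1 were too dim to be tested. Of 6 dendritic cell markers 3 fell (272 to 649.5 against 943 to 2713), all class II genes. Of 10 T and NK cell markers 3 fell (384 to 1371 against 1098 to 1746), and Cd3d, Cd3e, Cd3g and Cd4 were too dim to be tested. Neutrophil and mast cell markers gave 3 lower of 8 (167 to 2910.4 against 782 to 3549). B cell markers gave 0 lower of 3 tested (38.5 to 124 against 82 to 279), and Cd79b and Pax5 were too dim to be tested. The part of these cells in the lower Ccl3, Ccl4, Ccl5, Ccl9, Ccr7 and Cxcr4 was not tested.

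The vessel markers that passed moved the same way, and the fibroblast markers that passed moved the other way. Of 18 endothelial markers 16 fell, with sums of 2720.2 to 5247 in EOM and 25629.9 to 46699 in TA, and of 11 pericyte and smooth muscle markers 8 fell (6194 to 10792 against 20602 to 34678). Venous and activated endothelial markers gave 4 lower of 8 (3018 to 6942 against 8720.2 to 16439), and lymphatic endothelial markers 1 of 6 (1557 to 3228 against 1302 to 4977, with at most 1847 in EOM without EOM 1). Fibroblast markers gave 7 higher of 14, with sums of 147169 to 326868 in EOM and 97597 to 217381 in TA. The others did not pass, with Col1a1 at -0.84, Gsn at -0.14, Col1a2 at -0.09, Col3a1 at 0.00, Dcn at 0.16, Thy1 at 0.82 and Lum at 1.54. EOM 1 alone held the high fibroblast sum, the other EOM arrays reaching at most 184291, inside the TA range. Myogenic and myofibre markers gave 1 lower of 7 (112 to 772 against 249 to 1144). Without EOM 1, which held the 772, their EOM sums were at most 246, below all TA sums, and 3 of the 7 were lower. Side population markers gave 3 lower of 7 (1533 to 9499.8 against 4561 to 9544), and without EOM 1 also 1 higher. Their part in the values of Cxcl12, Cxcr4, Cxcl13 and the Ccl2 run was not tested.

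The remaining 35 member probe sets were too dim to be tested, with mean signals over 12 arrays of 3.8 to 37.3. They include every probe set of 17 genes: the ligands Ccl1, Ccl12, Ccl17, Ccl20, Ccl22, Ccl24, Ccl25, Cxcl15, Cxcl17 and Xcl1, and the receptors Ccr3, Ccr4, Ccr8, Ccr9, Ccr10, Cxcr2 and Xcr1. When every probe set of the array was tested without a filter, 0 of the 35 passed with limma, and 3 were at an unadjusted p under 0.05. A difference in these genes was not detectable at this signal.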

How the data were processed

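The 12 arrays are Affymetrix mouse whole-genome arrays, and per the labels' protocols the RNA went through linear amplification and the authors computed MAS5 summaries. The deposited values are signal intensity on a linear scale, and every array has a trimmed mean of 150. The sources used here name no genome build. The 64 control probe sets were removed. Log2(signal + 16) was fitted with limma 3.58.1 (R 4.3.3, eBayes with an intensity trend), EOM against TA, with Benjamini-Hochberg adjustment over the 27022 probe sets left after the lowest 40% by mean level. Preparations were separate, but whether they came from separate animals was not stated, so p-values measure the spread between these preparations. The labels do not say whether a replicate number pairs arrays, so the main fit used no pairing. A gene in a list stands by its brightest probe set, and some genes stand in more than 1 list. Rgs5, for example, counts among both the receptor signalling genes and the pericyte and smooth muscle markers. Genes named are those with a passing probe set, their partners, those passing without 1 array, and Cxcl12, Cxcr4, Ackr3, Ccl2, Cx3cl1 and Cx3cr1, with up to 4 passing genes per list. Members and lists were chosen with earlier results of these data known. The fit was also run on simulated data with independent noise for each probe set. These held no disturbed array, so they say nothing on calls that turn on EOM 1. Alternatives were other constants, normalizations, filters, array weights, a replicate block, the 3' to 5' ratio as covariate, and left-out arrays.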

Additional observations from a re-analysis of the deposited data

Results flagged for a closer look

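Among the 66 groups of 6 arrays checked for the 33 named probe sets, 8 held an array far from the others, of which 6 were on EOM 1. Chance alone flags about 1 in 20 groups picked without regard to their values. Some of these probe sets were named because they passed only without 1 array, so the 8 cannot be set against that rate. EOM 1 was low for Ccl7 (11.8, nearest array 540.3), Cxcl10 (593, nearest 3279.5), Cxcl12 1448823_at (1559.6, nearest 5099.8) and Cxcl16 1449195_s_at (25.9, nearest 122). It was high for Cxcl14 1418456_a_at (955, nearest 504) and Cxcr6 (176, nearest 17.7). Beyond that array, EOM 6 was low for Cx3cl1 (39.7, nearest 148) and TA 3 low for Cxcl16 1418718_at (33.9, nearest 124).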

How the results depend on the processing

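All probe sets called numbered 2225 with 12 arrays, 1445 after median centring, 5488 with array weights and 4675 without EOM 1, TA 3 and TA 5 (chosen after the data were seen), and 1381 to 4361 with arrays or replicate numbers left out. Ligand probe sets higher in EOM numbered 1, and 11 with array weights, 2 with the replicate block, 6 with the 3' to 5' ratio as covariate, 9 without the 3 arrays and 1 to 8 with arrays left out. Those lower numbered 6, and 3 to 9 with arrays left out. Receptor probe sets higher numbered 0, and 1 each under quantile normalization, a filter on 60%, array weights, the covariate and without the 3 arrays, and 0 to 1 with arrays left out. Those lower numbered 2, and 1 each under quantile normalization, median centring, no filter and a filter on 60%, 4 with array weights, 5 without the 3 arrays and 1 to 6 with arrays left out. Cxcl14 1418456_a_at lost its call after median centring (adjusted p = 0.0512) and without both arrays of replicate 0 (0.0628) or 2 (0.0726), and Ccl5 without both of replicate 2 (0.0569). Ackr1 changed sign with array weights (0.01) and without the 3 arrays (0.15). Ackr2 1437937_at did so with array weights (-0.11), without the 3 arrays (-0.17), and ranged from -0.29 to 0.25 with arrays left out. The cause was not tested. The median over all tested probe sets was -0.03, 0.03 after quantile normalization, 0.07 after median centring and -0.09 without EOM 1, and the share of calls that were higher was 38.9%, 40.7%, 38.4% and 48.8%. Deviations of arrays of the same number had correlations of -0.32 to 0.16. With EOM 1, TA 3 and TA 5 among the arrays, these cannot show whether a number pairs preparations. The replicate block gave 10 member calls, 9 of them shared with the 9 above, and 1632 calls in all. Detection calls were not used, so dim receptors have the least certain values.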
